A study of Homo sapiens with 4 samples.

Results

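The 5 hashtag samples described here are OVCAR5 cultures marked by the tag pairs HTO8/HTO10, HTO9/HTO10, HTO1/HTO8, HTO2/HTO8 and HTO3/HTO8, set against a sixth culture marked HTO7/HTO10. OVCAR5 is a human ovarian carcinoma cell line. In the study its cells were exposed in culture to the medium that tumor cells and T cells had shared, and 24 conditions were pooled for droplet-based single-cell RNA sequencing: no supernatant, undiluted supernatant or supernatant diluted 5, 25, 125 or 625 times, each for 2, 6, 12 or 24 h. Cells of each culture had been labelled with antibodies that carry a pair of 10 oligonucleotide tags. Which pair stood for which supernatant level and time is not given in the sources used here, so no sample below has either.

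Counts are of unique molecular identifiers (UMIs), 1 for each RNA molecule caught. Barcodes were kept with 1000 genes or more, no more than 20% of UMIs in mitochondrially encoded genes, and a pair of leading tags each at least 3 times the next. The 5 samples held 1176 cells, or 1379 with the 203 of HTO7/HTO10, of 5298 cells with a clear tag pair, 6408 that passed the other filters and 10660 barcodes. HTO8/HTO10 had 263 cells, HTO9/HTO10 had 240, HTO1/HTO8 had 267, HTO2/HTO8 had 212 and HTO3/HTO8 had 194. The samples, their order and the reference were chosen from levels in these data, with ICAM1, CXCL10, GBP1 and CCL2 as markers. The values below are therefore descriptions and carry no test. Each tag pair is 1 culture, so nothing measures the spread between cultures, and all 5 comparisons share the same reference. Intervals of 95% cover counting error only.

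Interferon gamma, a cytokine of T cells, signals through JAK kinases to factors that bind gamma-activated sites (GAS), as in the promoter of IRF1. IRF1 and related factors then act on interferon-stimulated response elements (ISRE) of genes for antigen presentation, antiviral defence and chemokines. Tumor necrosis factor (TNF) acts through NF-kB, which binds kB sites and induces chemokines, adhesion molecules and its own inhibitors such as NFKBIA. In epithelial tumor cells both cytokines act on some of the same genes, ICAM1 and CXCL10 among them.

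The 250 bases before the start site are shown for 5 genes that the results turn on, because they hold letters of these 3 kinds of site. They are from RefSeq (GRCh38.p14), read 5′ to 3′ on the gene's strand, and capitals mark matches on either strand to the GAS, ISRE or kB letters. N stands for any base in the searched motifs, which were TTCNNNGAA for GAS, GAAA, any 2 bases and GAAA again for ISRE and GGANNTTCC for kB. The IRF1 window (chr5:132490774-132491023, minus strand) holds a GAS match that begins 124 bases before the start, and the GBP1 window (chr1:89065209-89065458, minus strand) an ISRE match at 127. The CXCL10 window (chr4:76023498-76023747, minus strand) holds an ISRE match at 221 and a kB match at 176. The ICAM1 window (chr19:10270870-10271119, plus strand) holds a kB match at 186 and a GAS match at 75, and the CXCL8 window (chr4:73740319-73740568, plus strand) a kB match at 91.
IRF1: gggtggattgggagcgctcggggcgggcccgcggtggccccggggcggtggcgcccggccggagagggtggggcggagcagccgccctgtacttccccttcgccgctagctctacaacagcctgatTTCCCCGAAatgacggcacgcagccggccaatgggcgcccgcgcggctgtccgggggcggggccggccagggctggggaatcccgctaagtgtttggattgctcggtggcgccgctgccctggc
GBP1: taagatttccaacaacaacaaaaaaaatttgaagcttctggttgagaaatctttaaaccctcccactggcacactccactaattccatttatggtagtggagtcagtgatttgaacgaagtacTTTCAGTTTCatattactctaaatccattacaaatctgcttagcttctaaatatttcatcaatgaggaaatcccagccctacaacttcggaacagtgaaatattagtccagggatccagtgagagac
CXCL10: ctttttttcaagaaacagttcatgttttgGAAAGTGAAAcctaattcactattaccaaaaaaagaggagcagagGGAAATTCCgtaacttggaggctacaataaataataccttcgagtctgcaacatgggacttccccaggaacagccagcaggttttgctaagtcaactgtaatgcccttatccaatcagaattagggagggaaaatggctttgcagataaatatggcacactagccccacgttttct
ICAM1: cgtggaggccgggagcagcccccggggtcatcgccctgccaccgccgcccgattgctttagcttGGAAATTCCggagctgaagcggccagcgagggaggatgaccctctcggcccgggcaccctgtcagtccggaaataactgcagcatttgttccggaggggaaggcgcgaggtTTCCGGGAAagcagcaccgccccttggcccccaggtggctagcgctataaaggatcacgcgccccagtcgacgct
CXCL8: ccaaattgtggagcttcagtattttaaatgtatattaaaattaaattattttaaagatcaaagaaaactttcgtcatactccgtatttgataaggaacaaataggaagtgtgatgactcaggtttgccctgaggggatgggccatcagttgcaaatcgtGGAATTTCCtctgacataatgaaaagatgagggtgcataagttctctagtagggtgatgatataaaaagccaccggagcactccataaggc
Of 27305 promoters in that table, taken as 300 bases from 250 before to 50 after the start, 7.88% held a GAS match, 3.65% an ISRE match and 4.59% a kB match. A match is a string of letters and not a measured binding site. Sites with other letters were not searched, so a window without a mark may still hold a site of that kind. Shares for groups of genes along the series are void and not given, since only 54 of the 69 genes in one of the groups (78.3%) were found in the table.

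The 6 samples had between 2722399 and 3854042 UMIs in all, and median depths between 13210 and 13952 UMIs per cell. The median mitochondrial share was 8.67% in HTO7/HTO10, 10.8% in HTO8/HTO10 and between 9.51% and 9.77% in the other 4, against 9.54% to 13.8% over the other 18 tag pairs. HTO7/HTO10 was thus the lowest of all 24. Epithelial keratins were abundant in all 6 samples: KRT18 was between 1349 and 1732 counts in each 1e6 UMIs (CPM) and EPCAM between 43.4 and 55.0 CPM. Other members of the epithelial list were low. CDH1 was between 1.65 and 5.33 CPM, PAX8 between 1.33 and 2.94 CPM and MUC1 between 0 and 1.04 CPM. Of the mesenchymal list, VIM, a filament, was between 2022 and 2576 CPM and FN1 between 35.2 and 48.4 CPM, while COL1A2, COL3A1, DCN, LUM and PDGFRB had 0 counts. Of the 11 T cell markers, CD3E, CD3G, CD2, CD8B and PTPRC had 0 counts in all 6, and the summed level was 1.74 CPM in HTO7/HTO10, 5.60 CPM in HTO8/HTO10 and 3.05 to 3.96 CPM in the others. TRBC2 gave 19 counts of it in HTO8/HTO10 and 2 in HTO7/HTO10. Cells with at least 5 UMIs of KRT81, a keratin of a second population in the pool, made up 2.46% of HTO7/HTO10 and 2.83% to 4.12% of the 5 samples.

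At the edges of the cell rule, the 24 cells with 18% to 20% mitochondrial UMIs had ICAM1 at 693 CPM, and the 17 cells just outside, at 20% to 22%, had 1042 CPM. The 65 cells whose second tag was 3 to 4 times the third had 482 CPM, and the 75 cells at 2 to 3 times had 534 CPM. All these cells were pooled over the 6 samples, between which ICAM1 ran from 35.4 to 1088 CPM. The values may therefore depend on which samples the cells came from, and this was not tested.

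ICAM1, the adhesion molecule that leukocytes bind through their integrins (ENSG00000090339, GRCh38 chr19:10270835-10286615), was at 35.4 CPM in HTO7/HTO10, then at 1088, 878, 569, 350 and 171 CPM from HTO8/HTO10 to HTO3/HTO8. It fell at each step by more than counting error, and its lowest level in the 5 samples was still 4.83-fold that of the reference (3.89 to 6.05). ICAM1 is a marker, and the order and reference were chosen from levels in these data, so its course is no support for them. CXCL10, a chemokine that draws CXCR3-bearing T cells (ENSG00000169245, chr4:76021117-76023497), was at 31.3 CPM in the reference and at 1156, 1146, 749, 181 and 27.6 CPM. It had the same level in HTO8/HTO10 and HTO9/HTO10 within counting error (ratio 1.01, 0.967 to 1.05), dropped 4.15-fold (3.79 to 4.55) between HTO1/HTO8 and HTO2/HTO8, and in HTO3/HTO8 was at 0.881 times the reference (0.640 to 1.21).

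GBP1, a GTPase that attacks intracellular pathogens (ENSG00000117228, chr1:89052319-89065360), was at 9.72 CPM in the reference and at 352, 324, 309, 214 and 141 CPM along the series. HTO9/HTO10 and HTO1/HTO8 did not differ beyond counting error (1.05, 0.965 to 1.14), and HTO3/HTO8 stood 14.5-fold above the reference (9.85 to 22.1). CCL2, a monocyte chemokine (ENSG00000108691, chr17:34255218-34257203), was at 1.04 CPM in the reference, from 3 counts, and at 103, 148, 69.8, 20.1 and 3.31 CPM. It was highest in HTO9/HTO10, and its ratio in HTO3/HTO8, 3.17, had an interval from 0.792 to 18.2. GBP1 and ICAM1 thus remained above the reference in HTO3/HTO8, while CXCL10 and CCL2 did not differ from it beyond counting error.

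**Figure D1:**
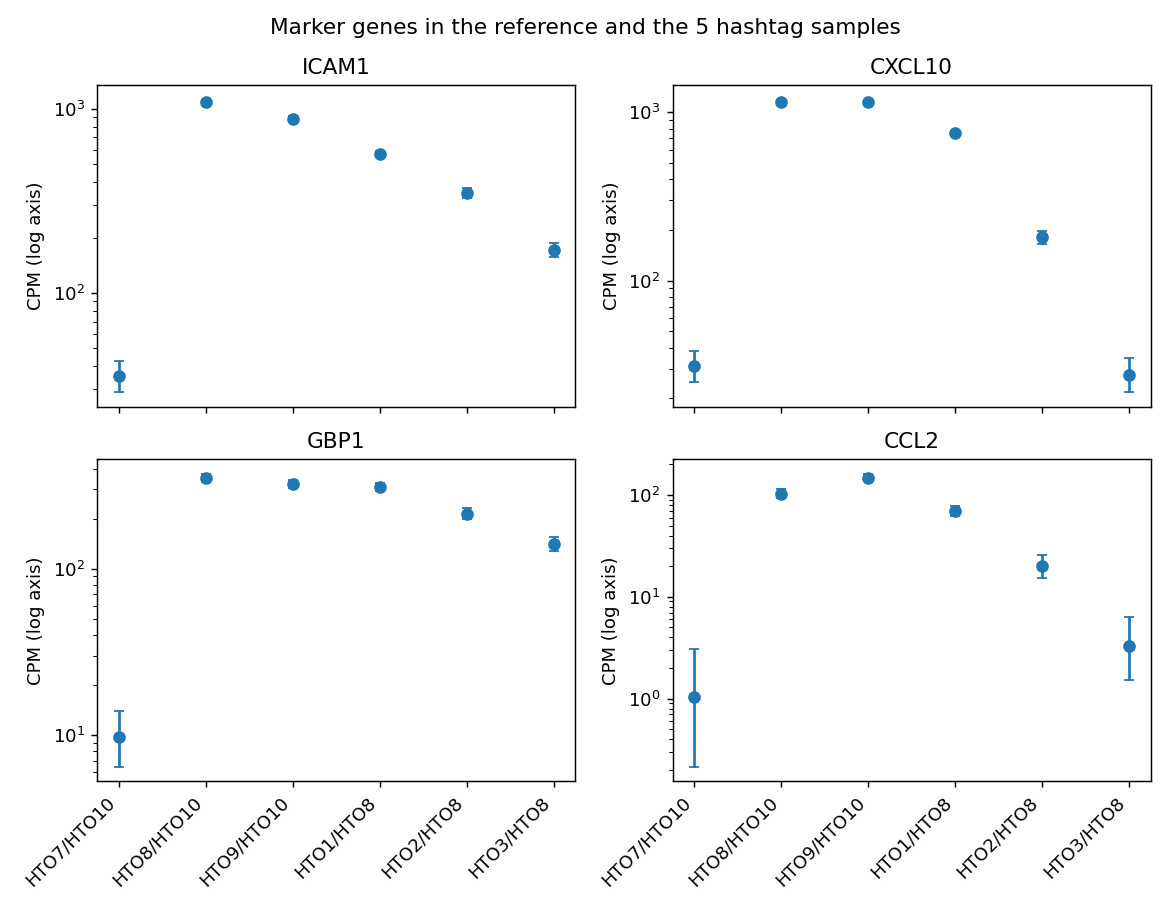
Levels of the 4 marker genes in CPM on log axes, in the reference HTO7/HTO10 and the 5 hashtag samples, 1 culture each, with exact 95% Poisson intervals. ICAM1 and GBP1 stay above the reference in HTO3/HTO8, at 171 and 141 CPM, while CXCL10 is at 27.6 CPM there and at 31.3 CPM in the reference.

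Across all genes the samples were compared by the difference of log2(CPM + 10) from HTO7/HTO10, for the 5735 genes whose mean over the 6 samples was 20 CPM or more. As 5 of these 6 samples are the series, a gene low in the reference could pass only through samples where it was high. This favours higher calls among tested genes. A gene was called higher or lower at a difference of at least 1, which is 2-fold on this scale and understates the change of low genes. In HTO8/HTO10 175 genes were higher (3.05%) and 62 lower (1.08%). HTO9/HTO10 had 160 higher (2.79%) and 14 lower (0.244%), and HTO1/HTO8 had 132 higher (2.3%) and 3 lower (0.0523%). HTO2/HTO8 had 96 higher (1.67%) and 2 lower (0.0349%), and HTO3/HTO8 had 60 higher (1.05%) and 0 lower (0%). Both directions thinned out along the order. The course of the lower genes depends on the reference: against HTO4/HTO8, another tag pair of unknown condition, there were 45, 24, 19, 9 and 2. The median of all tested genes was between -0.09 in HTO8/HTO10 and -0.01 in HTO3/HTO8. In all, 54 genes were higher in each of the 5 samples and 198 in at least 1. HTO8/HTO10, with the most calls, also had the highest median mitochondrial share of the 6 samples, 10.8%. Among deeper cells with no more than 10% mitochondrial UMIs, 174 genes were higher there, 163 of them among the 175, and 67 lower, 47 of them among the 62.

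**Figure D2:**
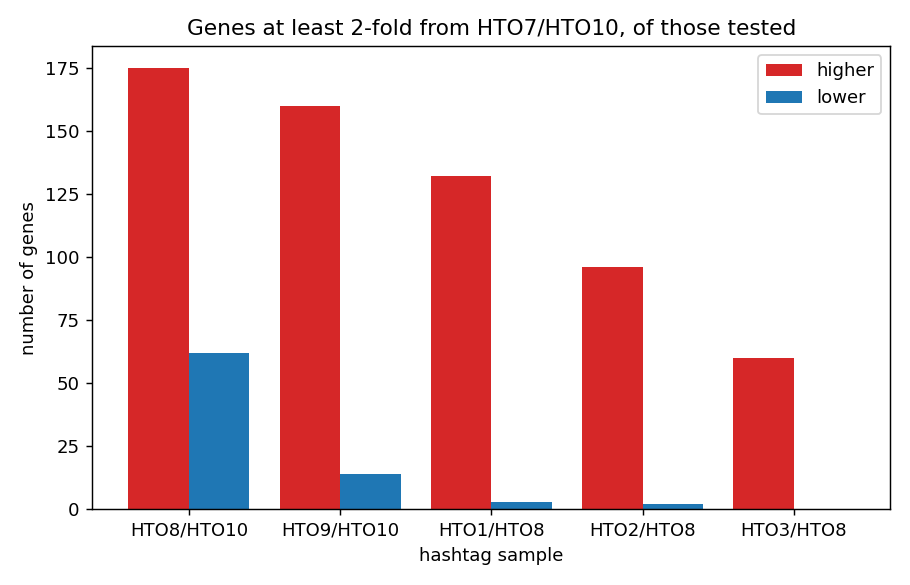
Number of the 5735 tested genes at least 2-fold higher (red) or lower (blue) than in HTO7/HTO10, on log2(CPM + 10), in each of the 5 hashtag samples. Higher genes go from 175 to 60 along the order, and lower genes from 62 to 14 in the first step and to 0 in HTO3/HTO8.

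The 175 genes higher in HTO8/HTO10 did not fade together. For each, the first sample along the order was noted in which its log2 difference was under 50% of that in HTO8/HTO10, a threshold chosen after the data were seen. This was HTO9/HTO10 for 12 genes, HTO1/HTO8 for 28, HTO2/HTO8 for 41 and HTO3/HTO8 for 25, while 69 genes (39.4%) kept at least 50% of their difference through HTO3/HTO8. The difference became smaller at every step for 74 genes, and it was largest in HTO8/HTO10 for 110 and in HTO9/HTO10 for 44. The fixed gene lists held 96 of the 175 genes. Interferon-induced lists held most of the listed genes that kept their difference. By this cut the lists of NF-kB inhibitors, NF-kB subunits and TNF-induced survival genes held none. Some genes lay close to the cut, however. In HTO3/HTO8 the inhibitor gene NFKBIE was only just under 50%, and the subunit gene RELB was at 48.4%. CD274, of an interferon-induced list, was classed as kept at the same rounded share as NFKBIE. Counting error of these shares was not computed, so the class of such genes is uncertain. The groups are described below by role, and the genes named in each class beyond the naming rule were chosen after their values were seen. Counts of higher list members stand beside shares of all tested genes of 3.05%, 2.79%, 2.3%, 1.67% and 1.05% from HTO8/HTO10 to HTO3/HTO8.

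Some signalling factors of the interferon gamma pathway kept their difference and others did not. Those that kept it were 5 of the 10 members higher in HTO8/HTO10, against 69 of all 175 higher genes (39.4%). Of 12 tested members 10 were higher in HTO8/HTO10 and 5 in HTO3/HTO8, and the list's median difference went from 1.38 to 0.65. IRF1, a transcription factor that interferon gamma induces (ENSG00000125347, chr5:132481609-132490798), was at 60.1 CPM in the reference and at 1331, 1151, 1029, 920 and 691 CPM. It was lower at each step by more than counting error, yet still 11.5-fold (9.84 to 13.5) above the reference in HTO3/HTO8. BATF2, a factor that works with IRF1, was at 5.90 CPM in the reference and between 94.8 and 134 CPM in the 5 samples.

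IRF9, a subunit of a complex that binds ISRE, did not follow the order: it was at 4.17 CPM in the reference and at 25.9, 33.6, 32.2, 35.3 and 40.4 CPM from HTO8/HTO10 to HTO3/HTO8. SOCS1, a feedback inhibitor of JAK kinases, was at 2.43 CPM and then at 52.8, 44.7, 32.4, 16.2 and 9.92 CPM. Of the feedback inhibitors, SOCS1 had under 50% of its difference from HTO2/HTO8 on and SOCS3 in HTO3/HTO8.

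The called antigen-processing genes PSMB8, PSMB9 and TAP1 had at least 89.8% of their HTO8/HTO10 difference in each later sample, and PSMB9 was almost level. PSMB9, a catalytic subunit of the immunoproteasome (ENSG00000240065, chr6:32844136-32859585), was at 43.8 CPM in the reference and at 217, 238, 248, 254 and 219 CPM. No neighbouring pair from HTO8/HTO10 to HTO2/HTO8 differed beyond counting error, and HTO2/HTO8 was 1.16-fold (1.04 to 1.29) above HTO3/HTO8. TAP1, the peptide transporter whose gene lies beside it, was at 16.7 CPM and then at 177, 225, 202, 187 and 143 CPM, highest in HTO9/HTO10. PSMB8, TAP1 and PSMB9 were the 3 of 10 tested members of the immunoproteasome list that were higher in HTO8/HTO10, and 5 were higher in HTO1/HTO8 and in HTO2/HTO8.

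Of the 6 tested genes of MHC class I and its partners, HLA-E and TAPBP were higher in all 5 samples. HLA-E, a ligand of inhibitory receptors on natural killer cells, was at 71.2 CPM and then between 224 and 273 CPM. HLA-B, HLA-C and B2M had smaller differences, with B2M at 1784 CPM in the reference and 2883, 2809, 2659, 2672 and 2462 CPM. Reads of the HLA genes can be shared between near-identical members, so their separate levels are uncertain. MHC class II was represented by 3 of 15 listed genes at 20 CPM or more. CD74, the class II chaperone, was at 15.6 CPM and then at 124, 106, 86.9, 60.3 and 29.8 CPM, and 10 of the other 18 tag pairs were above its highest value here.

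Antiviral interferon-stimulated genes made up the largest share of listed genes that kept their difference. They were 17 of the 19 members that were higher in HTO8/HTO10, against 69 of all 175 higher genes (39.4%). This list also had the most higher members of all lists there. Of 26 tested members 16 were higher in HTO3/HTO8, against 1.05% of all tested genes. The list's median went from 1.65 to 1.29, against medians of all genes of -0.09 and -0.01. IFIT3, part of an antiviral complex that binds viral RNA, was at 11.8 CPM and then at 191, 192, 203, 199 and 123 CPM. It was level over the first 4 samples within counting error and 1.61-fold (1.41 to 1.85) lower in HTO3/HTO8 than in HTO2/HTO8. PARP14, an ADP-ribosyltransferase, was at 18.8 CPM and then at 269, 295, 281, 264 and 202 CPM.

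APOL6, an apolipoprotein L family protein (ENSG00000221963, chr22:35648395-35668409), was at 57.3 CPM in the reference and at 607, 709, 686, 685 and 598 CPM in the 5 samples. The other 18 tag pairs had between 65.6 and 567 CPM, so all 5 samples lay above them. The 3 tested family members, APOL1, APOL2 and APOL6, were higher in each of the 5 samples and all kept their difference. They resemble one another in sequence, so that reads may have been split between them.

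The guanylate-binding proteins are also near copies. Of 7 listed members 4 were tested. GBP1, GBP2 and GBP4 were under 20 CPM in the reference and passed the filter only through samples where they were high. That all 4 were higher in all 5 samples is therefore a description only. Their median difference went from 3.54 down to 1.79. GBP4 was at 8.68 CPM and then at 267, 202, 158, 114 and 56.6 CPM, and GBP2 at 2.08 CPM and then at 101, 55.0, 35.6, 23.7 and 15.1 CPM. GBP3 was at 19.8 CPM and then at 156, 134, 122, 104 and 90.7 CPM. GBP1 and GBP3 kept their difference, GBP4 had under 50% of it in HTO3/HTO8 and GBP2 from HTO2/HTO8 on.

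**Figure D3:**
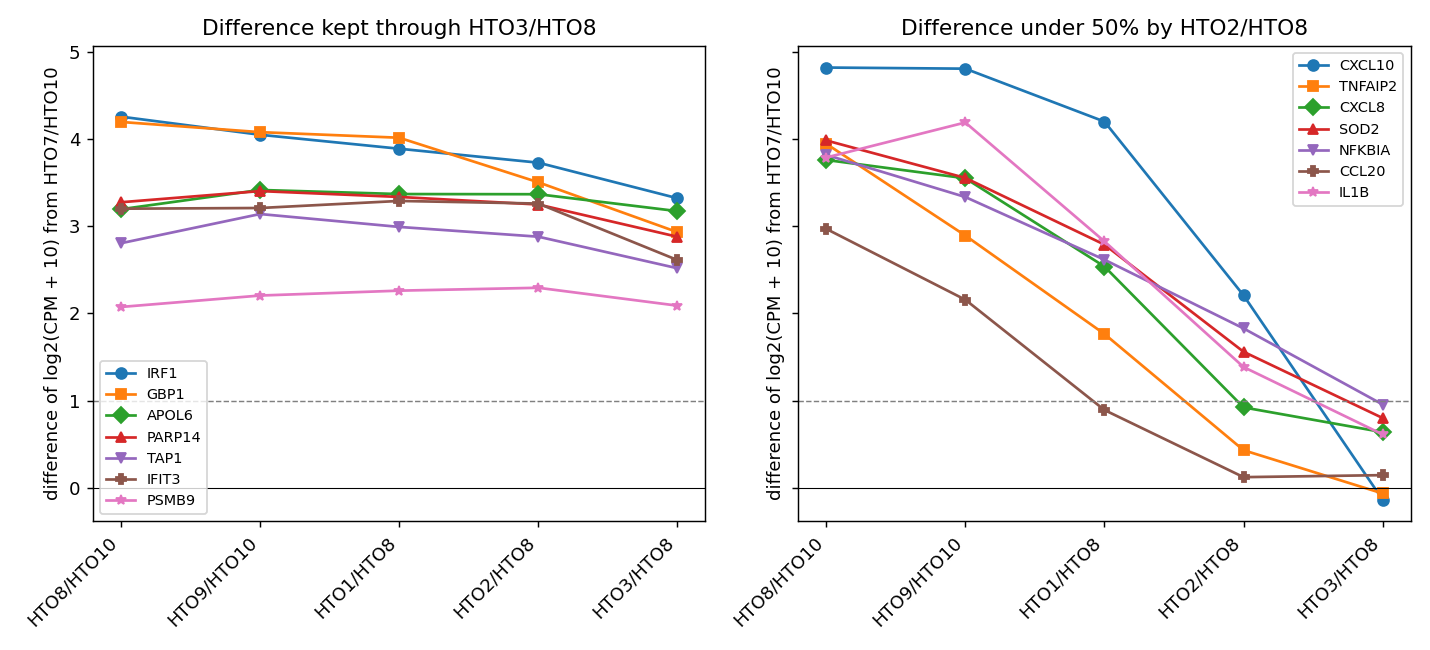
Difference of log2(CPM + 10) from HTO7/HTO10 along the 5 samples for 7 genes that kept at least 50% of their difference through HTO3/HTO8 (left) and 7 that had under 50% by HTO2/HTO8 (right). The dashed line is the 2-fold call. Genes on the left stay above it in HTO3/HTO8, and those on the right do not.

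The chemokines that bind CXCR3 did not keep their difference. CXCL9 was at 2.78 CPM in the reference and at 59.99, 42.2, 23.4, 9.23 and 5.14 CPM, and CXCL11 at 12.9 CPM and then at 186, 228, 150, 48.4 and 9.92 CPM. Like CXCL10, both had under 50% of their difference from HTO2/HTO8 on. IDO1, the tryptophan-degrading enzyme, was at 31.3 CPM and then at 205, 172, 119, 110 and 39.3 CPM. WARS, the tryptophanyl-tRNA synthetase, was at 70.5 CPM and then at 604, 474, 412, 355 and 286 CPM, and it kept its difference. CD274, the gene of the checkpoint ligand PD-L1, was classed as kept only at the 50% cut, and it was not called in HTO3/HTO8.

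CXCL10 and IDO1 were far from their highest levels in the pool: 6 of the other 18 tag pairs had more CXCL10 than HTO8/HTO10, with a highest value of 3896 CPM, and 10 had more IDO1, up to 2818 CPM. PSMB9 and TAP1 were also exceeded in 10 of the 18. Highest of all 24 in one of the 5 samples were 30 of the 175 genes higher in HTO8/HTO10 (17.1%), against 982 of all 5735 tested (17.1%).

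The summed level of the NF-kB inhibitors and feedback genes fell along the series, at 2289, 1738, 1132, 661 and 406 CPM. Their median difference did not fall in the first step: it was 1.71, 1.87, 1.46, 0.66 and 0.30. Of 10 tested members 7 were higher in HTO8/HTO10, 4 in HTO2/HTO8 and 0 in HTO3/HTO8. NFKBIA, which holds NF-kB in the cytoplasm (ENSG00000100906, chr14:35401511-35404749), was at 34.7 CPM and then at 622, 442, 264, 149 and 76.8 CPM. It fell at each step by more than counting error, by 1.41-fold in the first and 1.94-fold (1.64 to 2.30) in the last. TNFAIP3, the ubiquitin-editing enzyme A20, was at 11.8 CPM and then at 79.2, 72.2, 50.9, 37.9 and 19.8 CPM.

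TNFAIP2, a TNF-induced gene of vesicle traffic and membrane protrusions (ENSG00000185215, chr14:103123442-103137439), fell early. It was at 35.8 CPM in the reference and at 696, 330, 146, 51.7 and 33.8 CPM, a 2.11-fold fall (1.97 to 2.26) in the first step. In HTO3/HTO8 it was at 0.9447 times the reference (0.705 to 1.26). HTO8/HTO10 had more TNFAIP2 than any of the other 18 tag pairs, whose highest value was 633 CPM. The subunit genes NFKB1, NFKB2 and RELB were higher in the first 4 samples and not called in HTO3/HTO8. NFKB1 was at 35.8 CPM and then at 119, 127, 119, 83.1 and 52.5 CPM.

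Of 13 tested survival and stress genes of the TNF response, 8 were higher in HTO8/HTO10, 3 in HTO2/HTO8 and 1 in HTO3/HTO8. SOD2, the mitochondrial superoxide dismutase (ENSG00000112096, chr6:159669057-159745186), was at 40.6 CPM and then at 792, 585, 340, 139 and 78.2 CPM. BIRC3, an inhibitor of apoptosis, was at 23.3 CPM and then at 436, 385, 253, 151 and 74.6 CPM. Both fell at each step and were above the reference in HTO3/HTO8, where only BIRC3 was called.

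All 4 tested neutrophil chemokines had under 50% of their difference from HTO2/HTO8 on. CXCL8, interleukin 8 (ENSG00000169429, chr4:73740506-73743716), was at 27.8 CPM and then at 502, 433, 210, 61.6 and 48.9 CPM. It fell 3.40-fold (2.90 to 4.01) between HTO1/HTO8 and HTO2/HTO8, the steepest of its steps. CXCL1, at 4.86 CPM in the reference, was highest in HTO9/HTO10: it was at 219, 314, 114, 17.5 and 11.4 CPM. CXCL1, CXCL2 and CXCL3 are near copies of one another and their reads may have been split. IL1B, a fever-inducing cytokine, was also highest in HTO9/HTO10, at 2.78 CPM in the reference and then at 167, 223, 80.7, 23.4 and 9.55 CPM. IL1A was highest in HTO8/HTO10 instead. It was at 0.347 CPM in the reference, from 1 count, and then at 62.9, 49.7, 19.2, 4.94 and 0 CPM. Both had under 50% of their difference from HTO2/HTO8 on.

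CCL20, a chemokine for CCR6-bearing lymphocytes (ENSG00000115009, chr2:227805739-227817564), faded sooner. It was at 0.695 CPM in the reference, from 2 counts, and at 73.9, 37.7, 9.86, 1.65 and 1.84 CPM. The ratios to the reference were 106 (29.2 to 882) in HTO8/HTO10 and 2.37 (0.388 to 24.9) in HTO2/HTO8. VCAM1, an adhesion molecule for lymphocyte integrins, also rested on 2 reference counts, at 0.695 CPM, and was at 68.8, 25.8, 20.8, 6.92 and 2.57 CPM. TNFRSF9, the receptor 4-1BB, was at 1.04 CPM and then at 63.7, 34.1, 15.1, 8.90 and 3.67 CPM.

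The called acute-phase genes, PTX3, SAA1 and SAA2, peaked in HTO9/HTO10. PTX3, a soluble pattern-recognition protein, was at 155 CPM in the reference and at 478, 673, 545, 312 and 154 CPM, and in HTO9/HTO10 it exceeded the highest of the other 18 tag pairs, 619 CPM. SAA1 was at 164 CPM and then at 446, 591, 385, 263 and 166 CPM, but SAA1 and SAA2 are near copies whose reads may be shared. Of 7 tested members of the list 3 were higher in each of the first 3 samples and 0 in the last 2.

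Some genes of cell death were among those that kept their difference. Of 11 tested caspases and executors 5 were higher in HTO8/HTO10, against 3.05% of all tested genes, CASP8, GSDMD, BAK1 and PMAIP1 among them. All 5 kept their difference, against 69 of all 175 higher genes (39.4%). BCL2L1, also of this list, was not called but was at 0.556 times the reference in HTO8/HTO10 (0.480 to 0.645), below all of the other 18 tag pairs. CASP8, the caspase at death receptors (ENSG00000064012, chr2:201233443-201287711), was at 36.1 CPM and then at 94.1, 116, 114, 110 and 87.8 CPM. The other 18 tag pairs reached at most 76.0 CPM, so all 5 samples were above them. TNFSF10, the death ligand TRAIL, had another course: it was at 3.47 CPM and then at 60.3, 27.8, 17.1, 10.6 and 5.88 CPM.

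**Figure D4:**
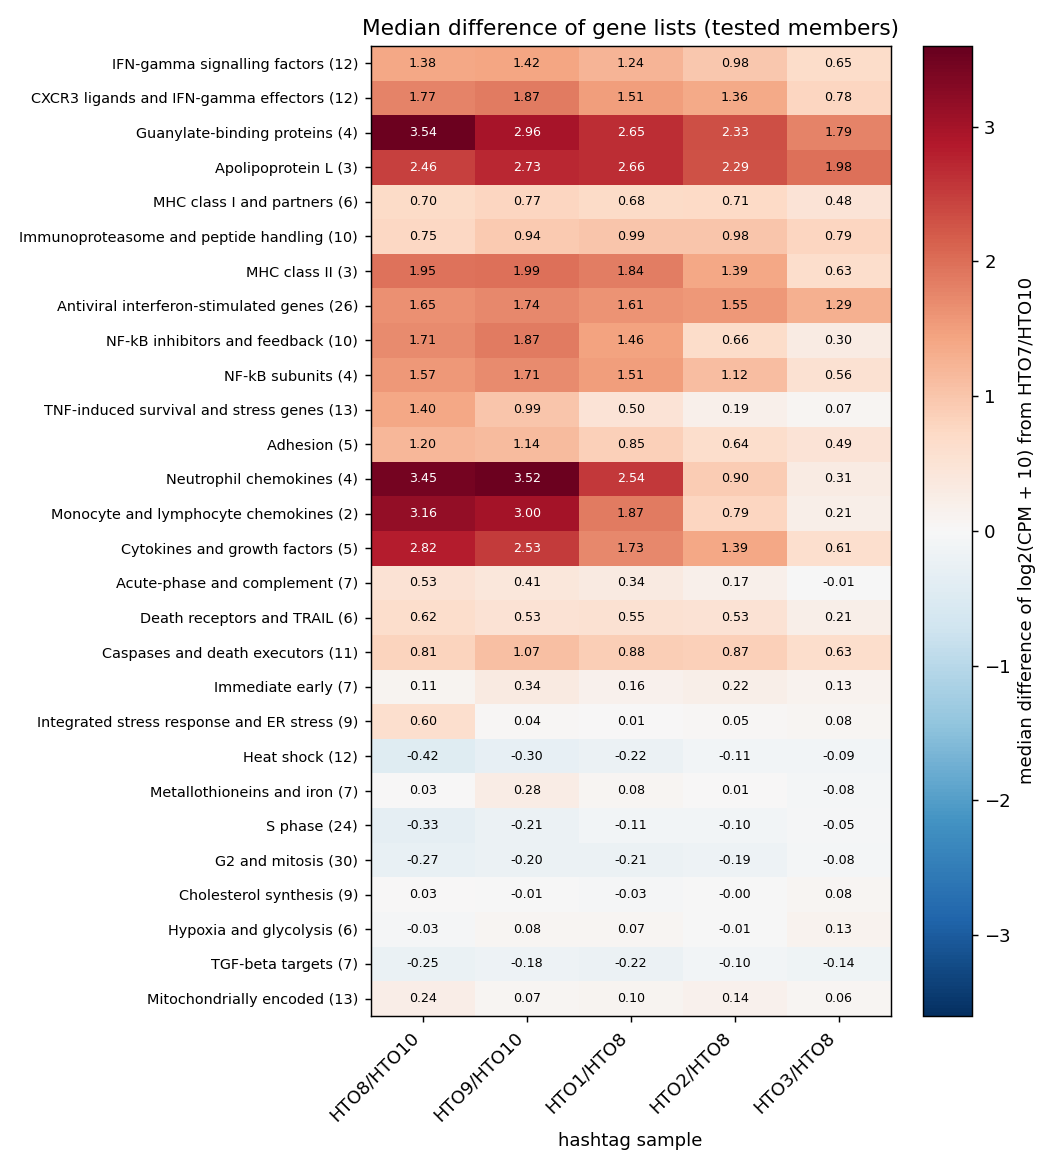
Median difference of log2(CPM + 10) from HTO7/HTO10 over the tested members of each gene list (number in brackets), in the 5 hashtag samples. Antiviral genes go from 1.65 to 1.29 along the order, and neutrophil chemokines from 3.45 to 0.31.

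Against HTO7/HTO10, most lower genes were called in HTO8/HTO10. Against HTO4/HTO8 45 genes were lower there, 33 of them among the 62. Of the 62 lower genes 38 (61.3%) already had under 50% of their difference in HTO9/HTO10, and 0 kept it through HTO3/HTO8. HSPA8, the constitutive cytosolic chaperone (ENSG00000109971, chr11:123057489-123063230), was at 1803 CPM in the reference, 505 CPM in HTO8/HTO10 and 1507, 1652, 1699 and 1651 CPM in the rest. HTO8/HTO10 thus stood alone, at 0.280 times the reference (0.266 to 0.295), and 17 of the other 18 tag pairs had more. HSPA8 and HSPA1A were the only lower genes among 12 heat shock genes, whose median was -0.42 in HTO8/HTO10 and -0.09 in HTO3/HTO8. KRT19 was lower too, the only called epithelial marker, at 247 CPM in the reference and 113 CPM in HTO8/HTO10.

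A second set of lower genes was graded. DKK1, an inhibitor of Wnt signalling (ENSG00000107984, chr10:52314296-52318042), was at 140 CPM in the reference and at 8.27, 39.96, 66.7, 87.0 and 97.0 CPM. Its last 2 values did not differ beyond counting error (0.897, 0.754 to 1.07), and both were below the reference. F3, tissue factor, was at 146 CPM and then at 22.7, 49.1, 72.4, 94.9 and 113 CPM. NR2F2, a nuclear receptor, was at 191 CPM and then at 43.5, 57.5, 76.5, 106 and 145 CPM, and in HTO8/HTO10 it was below all of the other 18 tag pairs.

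CCN1, CCN2 and THBS1, genes of secreted matrix proteins, were the 3 of 7 tested TGF-beta targets that were lower in HTO8/HTO10. CCN1 was at 108 CPM and then at 15.5, 73.0, 88.7, 112 and 97.3 CPM. CCN2 was at 53.5 CPM and then at 5.07, 13.6, 21.3, 32.0 and 30.9 CPM, and THBS1 at 168 CPM and then at 52.8, 94.9, 92.4, 117 and 97.7 CPM. ANKRD1, a transcriptional cofactor, was at 73.3 CPM and then at 6.67, 30.5, 56.3, 82.7 and 58.4 CPM. Of these 4 only CCN2 and THBS1 were below the reference at every step.

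RRS1, a ribosome assembly factor, was at 168 CPM, at 57.9 CPM in HTO8/HTO10 and at 129, 140, 161 and 159 CPM in the others. CD3EAP, which encodes a subunit of RNA polymerase I and is no T cell marker despite its name, was at 136 CPM, 28.3 CPM and then 96.0, 125, 125 and 140 CPM. Among lower genes, 24 of 62 had their lowest level of all 24 tag pairs in one of the 5 samples (38.7%), against 643 of 5735 tested genes (11.2%). The rule used this contrast, and the first of these shares is a description only.

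The lists of S phase genes and of G2 and mitosis genes had no call in any of the 5 samples. Outside these lists, CDKN1A, a cell cycle inhibitor, was called higher in HTO8/HTO10, at a difference of 2.38, and MYC lower, at -1.31. The 24 tested S phase genes had a median of -0.33 in HTO8/HTO10 and -0.05 in HTO3/HTO8, and the 30 genes of G2 and mitosis -0.27 and -0.08, against -0.09 and -0.01 for all genes. Of 9 tested genes for the integrated stress response and stress of the endoplasmic reticulum, 2 were called, both in HTO8/HTO10. DDIT4, an inhibitor of mTOR, was at 7.99 CPM in the reference, 72.5 CPM in HTO8/HTO10 and 18.3, 9.60, 10.2 and 6.61 CPM in the others. PSAT1, an enzyme of serine synthesis, was at 22.6 CPM, 58.1 CPM and then between 21.0 and 26.8 CPM.

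Other genes were higher further along the series than in HTO8/HTO10. Of the 175 genes 44 had their largest difference in HTO9/HTO10, 13 in HTO1/HTO8, 5 in HTO2/HTO8 and 3 in HTO3/HTO8, and 19, 13, 11 and 3 genes were called higher in those samples but not in HTO8/HTO10. FST, an antagonist of activins (ENSG00000134363, chr5:53480409-53487134), was at 27.8 CPM in the reference, 11.2 CPM in HTO8/HTO10 and 69.9, 77.8, 73.2 and 49.96 CPM in the others. HTO8/HTO10 was below the reference (0.403, 0.271 to 0.593) and the other 4 samples were above it, and above all of the other 18 tag pairs, whose highest value was 41.7 CPM. CLDN1, a tight junction protein, was at 40.6 CPM and then at 60.8, 113, 118, 92.6 and 63.6 CPM. ETS1, a transcription factor, was at 126 CPM and then at 178, 290, 244, 204 and 171 CPM.

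The course of a gene was also read from single cells, as the share of cells with at least 1 UMI after each cell was thinned to 3000 UMIs. This left 1366 of 1379 cells, with 1 to 4 left out per sample. The pool holds no cell type that should lack these genes, so the share in HTO7/HTO10 is given as the level they can be read against. IRF1 had a UMI in 13.9% of thinned cells in the reference and in 95.8%, 94.6%, 94.3%, 91.0% and 83.2% along the series. The unthinned shares were 46.3% in the reference and 99.0% to 100% in the 5 samples. Its UMIs per thinned cell fell from 4.01 to 2.00 meanwhile, so most cells of each sample had IRF1 while its amount became smaller.

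PSMB9 was in 7.92% of thinned reference cells and between 44.7% and 46.6% in all 5 samples, with overlapping intervals (unthinned 33.5%, then 85.6% to 91.4%). GBP1 was in 1.48% and then 59.0%, 51.0%, 52.7%, 37.1% and 28.4% of thinned cells (unthinned 9.85%, then 92.0% down to 69.6%). In HTO3/HTO8 these interferon-induced genes thus had a UMI in a larger share of cells than in the reference. The intervals do not overlap, but they cover the counting of cells within 1 culture each and not the spread between cultures. GBP1 is also a marker of the chosen samples.

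ICAM1 was in 8.91% of thinned reference cells and in 95.0%, 89.5%, 73.9%, 56.2% and 37.9% along the series (unthinned 36.0%, then 98.9% down to 79.4%). TNFAIP2 was in 11.4% and then 81.2%, 50.2%, 31.1%, 12.4% and 10.5% (unthinned 35.5%, then 98.1% down to 35.1%). CXCL10 was in 6.44% and then 78.5%, 72.8%, 62.5%, 25.2% and 7.37% (unthinned 24.1%, then 94.3% down to 26.8%). For CXCL10 and TNFAIP2 the share of cells reached that of the reference in HTO3/HTO8, where the intervals overlap.

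CXCL8, the neutrophil chemokine, was in 3.96% of thinned reference cells and in 54.8%, 49.4%, 28.4%, 9.05% and 5.26% of cells along the series (unthinned 12.3%, then 84.0% down to 11.3%). In HTO1/HTO8, where CXCL8 had a mean of 0.621 thinned UMIs per cell, the 10% of cells with most held 69.5% of them. PSMB9, at a like mean of 0.686 there, had 37.0% in its top 10% of cells. This share also depends on the mean, and other chemokines had high values too, such as CXCL10 in HTO2/HTO8 with 65.8% at a mean of 0.529. In HTO3/HTO8 only 10 thinned cells had a CXCL8 UMI.

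HSPA8 was in 99.0% of thinned reference cells, 77.8% in HTO8/HTO10 (72.2% to 82.7%) and 96.7% to 98.4% in the other 4 samples (unthinned 99.5%, 97.7% and 99.1% to 100%). Its UMIs per thinned cell were 5.03 in the reference, 1.56 in HTO8/HTO10 and between 4.498 and 4.92 in the rest.

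**Figure D5:**
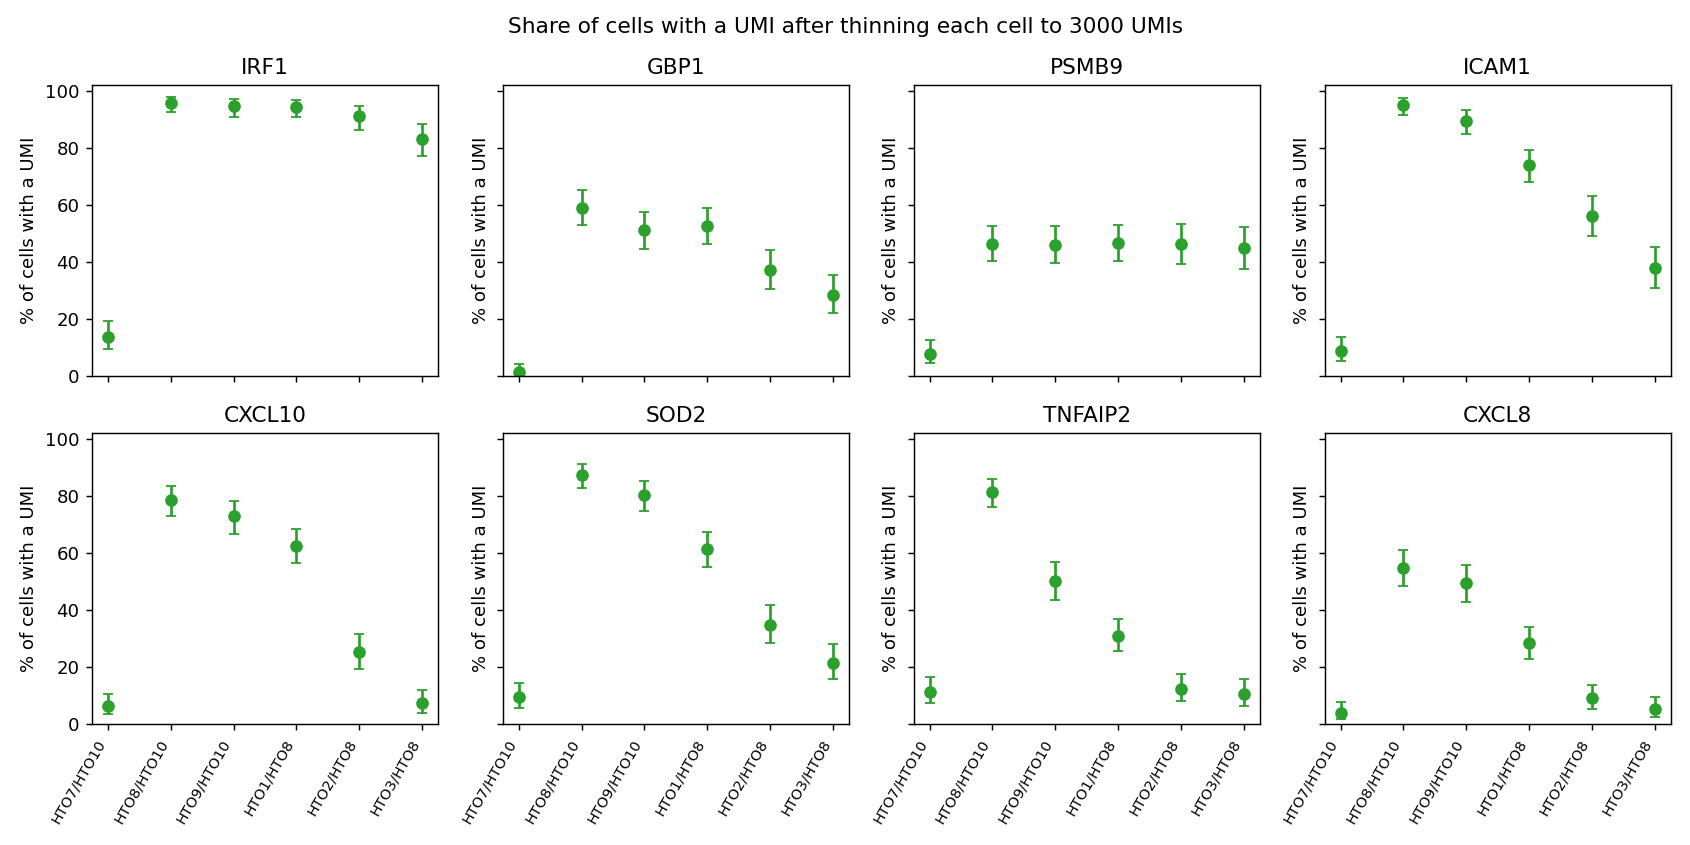
Share of cells with at least 1 UMI of 8 genes after thinning each cell to 3000 UMIs, in the reference HTO7/HTO10 and the 5 hashtag samples, with exact 95% binomial intervals that cover counting error only. PSMB9 stays between 44.7% and 46.6% along the 5 samples, while CXCL10 goes from 78.5% to 7.37%.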

How the data were processed

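One pool of cultures was sequenced as 2 gene-expression and 2 cell-hashing libraries. The deposited matrix holds UMI counts for 36602 genes and 10 hashtags in 10660 distinct barcodes, which the authors made, per the file headers, in Cell Ranger 5.0.1. Cell Ranger 2.1.1 and GRCh38 stand in the submitters' processing notes, and the annotation version is not given in the sources used here. HTOn is the n-th hashtag of the deposited feature table.

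Counts of kept cells were summed per tag pair and scaled to 1e6 gene UMIs (CPM), so 3 counts were 0.778 to 1.10 CPM in the 6 samples. Intervals are exact Poisson for levels, conditional binomial for ratios and exact binomial for shares. A fold against 0 counts was taken against 3 counts in the reference. Doublets across cultures carry more than 2 tags, and the tag margin removes them only where the third tag is high enough. How many passed was not estimated. Doublets within a culture were not removed. Coordinates came from GENCODE 29 on GRCh38, found by identifier for 34616 of 36602 genes, and promoters from RefSeq by symbol. The scripts used Python 3.11.15, numpy 2.4.6, scipy 1.17.1 and pandas 2.3.3, and were tested on simulated counts.

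The samples, markers and 28 lists with 419 genes were chosen with earlier results of these data known. Genes named by rule were the 25 highest and 15 lowest in HTO8/HTO10, the 10 highest in HTO3/HTO8, the 10 with the largest fall to HTO8/HTO10, 4 members of each list by mean and 4 by range, and the 4 markers. Alternatives varied the pseudocount, the filter on low genes, the scaling, the cell filters, the tag margin, the KRT81 cells, the weight of cells and the reference. Some genes are not reported here. No replicate or pairing exists among the 6 cultures.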

Additional observations from a re-analysis of the deposited data

Results flagged for a closer look

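A feature called Katushka, the name of a far-red fluorescent protein, appears in the deposited table and is not described in the labels. It was chosen after its values were seen, and it stands here because it was above the floor taken for 0 counts in the reference. It had 0 counts in HTO7/HTO10, where that floor of 3 counts is 1.04 CPM. It was at 3.73 CPM in HTO8/HTO10 (14 counts), 5.27 CPM in HTO9/HTO10 (19 counts) and 5.71 CPM in HTO1/HTO8 (22 counts). HTO2/HTO8 had 6.26 CPM (19 counts) and HTO3/HTO8 had 6.61 CPM (18 counts). Taken against 3 counts in the reference, the level was at least 3.58-fold higher in HTO8/HTO10 and at least 6.35-fold higher in HTO3/HTO8, before the counting error of those samples. The exact 95% Poisson upper limit of the reference is 1.28 CPM. The intervals of the 5 samples overlap, from 2.04 to 6.26 CPM in HTO8/HTO10 and from 3.92 to 10.4 CPM in HTO3/HTO8. Over the other 18 tag pairs it ran from 0 counts in HTO4/HTO8 to 11.3 CPM in HTO7/HTO8.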

How the results depend on the processing

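The counts of called genes, main values 175, 160, 132, 96 and 60 higher and 62, 14, 3, 2 and 0 lower from HTO8/HTO10 to HTO3/HTO8, depended on the pseudocount, on a higher minimum for low genes and, for lower genes, on the reference. With a pseudocount of 1 CPM there were 130, 25, 10 and 4 lower genes from HTO8/HTO10 to HTO2/HTO8, and 97 higher in HTO3/HTO8. With 50 CPM there were 81, 63, 48, 32 and 20 higher genes, and 11, 3, 0 and 0 lower ones. Among the 1599 genes at a mean of 100 CPM or more there were 53, 48, 41, 32 and 26 higher, and 16, 1, 1 and 0 lower, as fewer genes were tested. In HTO1/HTO8 there were 6 lower genes with a tag margin of 5, and 5 without the KRT81 cells. Against HTO4/HTO8 as the reference there were 45, 24, 19, 9 and 2 lower genes from HTO8/HTO10 to HTO3/HTO8, of which 33, 6, 2, 2 and 0 were lower against HTO7/HTO10 as well, and the cause was not tested. In HTO8/HTO10, 149 of the 176 higher genes against HTO4/HTO8 were higher against HTO7/HTO10 too. All other counts were within 1.5 times the main ones. The classes of genes by the share of their difference kept along the order were not computed under these settings, and that share depends on the pseudocount. No called difference of a named gene changed sign: of 3828 values over 12 settings, 3078 moved by less than their counting interval and 750 by more, and 121 fell under 2-fold with 50 CPM and 32 with the other reference. Scaling by size factors moved the median of all genes in HTO8/HTO10 from -0.09 to -0.01, less than 0.1. No paired analysis was possible because each tag pair is 1 culture with no replicate number. Ratios that rest on 2 or 3 reference counts, as for CCL20, VCAM1 and CCL2, are limited by depth.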

Other observations

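Values of 5 further genes are given here, chosen after they were seen. SLFN5 and HAPLN3 are in none of the lists, SAMD9L is in the antiviral list, and MT2A and FTH1 are in the list of metallothioneins and iron genes. SLFN5, a Schlafen family member, was at 4.51 CPM in HTO7/HTO10 and at 105, 44.96, 31.4, 26.4 and 16.9 CPM from HTO8/HTO10 to HTO3/HTO8. HAPLN3, a hyaluronan-binding link protein, was at 4.17 CPM and then at 104, 135, 110, 81.7 and 39.3 CPM. SAMD9L was nearly level, at 5.21 CPM in the reference and 64.3, 65.2, 70.6, 76.5 and 56.9 CPM. MT2A, a metallothionein, was at 1322 CPM and then at 2656, 2783, 2271, 1735 and 1408 CPM, while FTH1, the ferritin heavy chain, was at 5932 CPM, at 8955 CPM in HTO8/HTO10 and between 5962 and 6507 CPM in the others.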
